A study of Homo sapiens with 4 samples.

Results

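Genes of the splicing machinery were followed after exposure to the dioxin TCDD in SK-N-SH, a line of adherent cells grown from a human neuroblastoma. The members were listed by name as spliceosome proteins, SR and hnRNP proteins and small nuclear RNA genes on chromosomes 1 to 5, and every array feature (a row of the table) that the platform annotates with exactly 1 of these symbols was kept. Of 39 listed genes, 38 had such a row. HNRNPA3, an hnRNP gene, shared its row with MIR4444-1 and is not described. There were 40 rows of 13493 in all, 35 rows of 34 protein genes and 5 rows of 4 small nuclear RNA genes. Both HNRNPR and RNU5F-1 had 2 rows, called the brighter and the dimmer here by their mean signal.

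Cells at 70% confluency received TCDD, a ligand of the aryl hydrocarbon receptor (AhR), at 1e-10 M for 24 h, or the solvent dimethyl sulfoxide (DMSO) alone, and DMSO did not exceed 0.1% in any culture. Each of the 4 arrays (Affymetrix Human Transcriptome Array 2.0) holds the RNA of 1 sample, 2 from TCDD and 2 from DMSO. The titles name biological replicates, but no label says which cultures or days they came from, so the spread between them may be partly technical. A single line, dose and time were measured, and the number of arrays limits the precision of every value. In bulk RNA of a culture, fewer cells of a type and less RNA per cell cannot be told apart.

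Introns are removed from pre-messenger RNA by the spliceosome, which is built from small nuclear RNAs and the proteins bound to them. The major spliceosome uses the U1, U2, U4, U5 and U6 RNAs, while a rare class of introns is removed by a minor spliceosome with U11, U12, U4atac and U6atac beside U5. SR proteins usually promote and hnRNP proteins often repress the use of a splice site, and neurons have their own versions of several of these regulators, such as PTBP2.

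Signals are log2 values, changes are given on that scale as the mean of the TCDD arrays less that of the DMSO arrays, and a row is said to rise or fall where limma's p was under 0.05 after Benjamini-Hochberg adjustment over all 13493 features. The standard error (SE) of a change is limma's moderated one, and intervals cover 95%. Median signals of the arrays were 8.20 and 8.19 for TCDD and 8.19 and 8.22 for DMSO. DMSO replicate 2 stood apart. Its interquartile range was 2.00, against 2.21 and 2.20 for the TCDD arrays and 2.13 for DMSO replicate 1, and the SD of its difference from DMSO replicate 1 over all features was 0.132, against 0.0855 between the TCDD arrays. The effect of leaving that array out is given with the results. All 6 measured markers of sympathetic neuroblasts, HAND2, GATA2, ISL1, HAND1, ALK and MYCN, and all 4 of mesenchymal-type neuroblastoma cells, FN1, NOTCH2, PRRX1 and TGFBR2, read above 8.34, the signal under which 95% of 76 olfactory receptor features lay. Of these 10 markers HAND1, NOTCH2, PRRX1 and TGFBR2 rose and 0 fell, where 9.41% of all features were called higher and 8.01% lower. The 4 mesenchymal signals summed to 40.7 and 40.8 on the TCDD arrays, against 39.9 and 39.9 on the DMSO arrays. Of 9 measured glial, immune, endothelial and epithelial markers only GFRA3 read above that level. All 5 immune markers lay under it, and their summed log2 signal was 34.7 to 34.8 on TCDD arrays, against 35.3 to 35.8 on DMSO arrays; of the 5, FCGR3A fell. The part of these markers in the results below was not tested.

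Among the small nuclear RNAs, RNU11 and the dimmer row of RNU5F-1 rose after TCDD, RNU4ATAC and the brighter row of RNU5F-1 read higher without passing, and RNU5D-1 did not pass. Of the 5 rows 2 rose and 0 fell, and at an unadjusted p under 0.05 by limma 3 were higher and 0 lower. Over all features 9.41% were called higher and 8.01% lower, and 22.8% were higher and 16.7% lower at the unadjusted threshold. Both TCDD arrays lay above both DMSO arrays in 4 of the 5 rows, which was so for 40.7% of all features, while in 30.9% of all features both lay below. The median change of the 5 rows was 0.23, against 0.023 over all features. That median is the value of the dimmer RNU5F-1 row. Both RNU5F-1 rows lay under the olfactory level, and without the dimmest 25% of features, which include them, the median was 0.095.

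**Figure D1:**
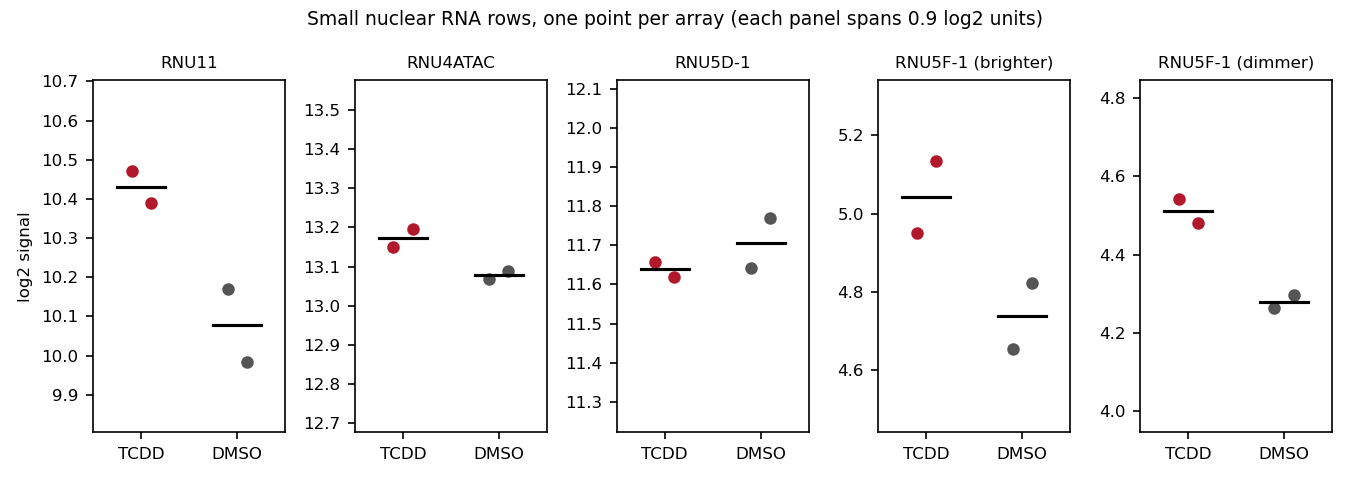
Log2 signal of the 5 small nuclear RNA rows on each array, TCDD left and DMSO right in each panel, with a bar at the mean of 2 arrays; panels have their own level but the same span. The TCDD points of RNU11 at 10.4 and 10.5 lie above the DMSO points at 9.98 and 10.2, and the groups overlap only for RNU5D-1.

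RNU11 encodes U11 RNA, which recognises the upstream splice site of minor introns. It read 10.47 and 10.39 in TCDD, against 10.17 and 9.98 in DMSO. Both TCDD arrays were above both DMSO arrays, and DMSO replicate 2 was the lowest. RNU11 rose by 0.35 (SE 0.076, limma adjusted p = 0.0310), or 1.28-fold, with an interval from 0.17 to 0.54. Without DMSO replicate 2 the change was 0.26 (limma adjusted p = 0.0761), with TCDD replicate 1 left out it was 0.31 (limma adjusted p = 0.0674), and it was 0.23 after cyclic loess normalization (limma adjusted p = 0.0581), so the call was lost in each while the direction was not. RNU4ATAC encodes U4atac RNA, which pairs with U6atac in the same machinery and is mutated in a form of primordial dwarfism. It read 13.15 and 13.20 in TCDD, against 13.07 and 13.09 in DMSO. The groups did not overlap, and the change of 0.095 (SE 0.051, limma adjusted p = 0.211) did not pass, with an interval from -0.029 to 0.22.

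RNU5F-1 and RNU5D-1 encode variants of U5 RNA, the small nuclear RNA that aligns the exons in both spliceosomes, and no other gene lies between them in the RefSeq annotation. U5 genes are near-identical copies, so signal may be shared between them and their pseudogenes, and their rows are uncertain as measures of 1 gene. The dimmer RNU5F-1 row read 4.54 and 4.48 in TCDD, against 4.26 and 4.30 in DMSO, and rose by 0.23 (SE 0.053, limma adjusted p = 0.0359). The brighter row read 4.95 and 5.13 in TCDD, against 4.66 and 4.82 in DMSO. The groups did not overlap in either row, but the brighter one varied more within each group, and its change of 0.30 (SE 0.086, limma adjusted p = 0.0575) did not pass. It passed without TCDD replicate 1, at 0.39 (limma adjusted p = 0.0113). These rows were among the dimmest of the table, at percentiles 1.41 and 2.83 of mean signal. The call of the dimmer row was lost without DMSO replicate 2 (0.25, limma adjusted p = 0.0711), without TCDD replicate 1 (0.20, limma adjusted p = 0.325) and without TCDD replicate 2 (0.26, limma adjusted p = 0.128). RNU5D-1 went the other way without passing. It read 11.66 and 11.62 in TCDD, against 11.64 and 11.77 in DMSO, with overlapping groups and a change of -0.066 (SE 0.062, limma adjusted p = 0.447), which was -0.0024 without DMSO replicate 2.

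Among protein genes, SNRNP40 was the only one of 35 rows that rose and 0 fell. The share of 1 in 35 compares with 7.25% of 5227 protein-coding features called higher and 3.83% called lower. Among the 3859 protein-coding features whose mean signal lay in the range of the members, 8.11 to 12.5, these shares were 8.99% and 2.05%. At an unadjusted p under 0.05 by limma, 11 of the 35 rows were higher and 0 lower, against 33.8% higher and 4.56% lower among the features of like signal. Changes ran from -0.073 to 0.24, all under 1.2-fold, and the smallest adjusted p that did not pass was 0.0680.

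Small differences in 1 direction were nonetheless widespread. The TCDD mean was above the DMSO mean in 33 of 35 rows, and both TCDD arrays were above both DMSO arrays in 26, or 74.3%. In the 3859 features of like signal the TCDD mean was above the DMSO mean for 79.5%, and both TCDD arrays were above for 65.9%. The median change of the 35 rows was 0.11, against 0.100 for the features of like signal, 0.065 for all protein-coding features and 0.023 for all features. A shift of this size thus also occurred in other protein-coding features of like signal, and whether the members differ from those was not tested. Like signal means the range of the members only, and SNRPG set its low end at 8.11. Beside it and the dimmer HNRNPR row at 8.75, the dimmest row was MAGOH at 9.40. In bins of 1 log2 unit the median change of protein-coding features was 0.030 from 8 and 0.12 from 9 and from 10. It was 0.087 from 11 and 0.076 from 12. The bins from 8, 11 and 12 thus lay under 0.100, and those from 9 and from 10 lay above it. The 0.100 is therefore not matched to the signal of each member.

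**Figure D2:**
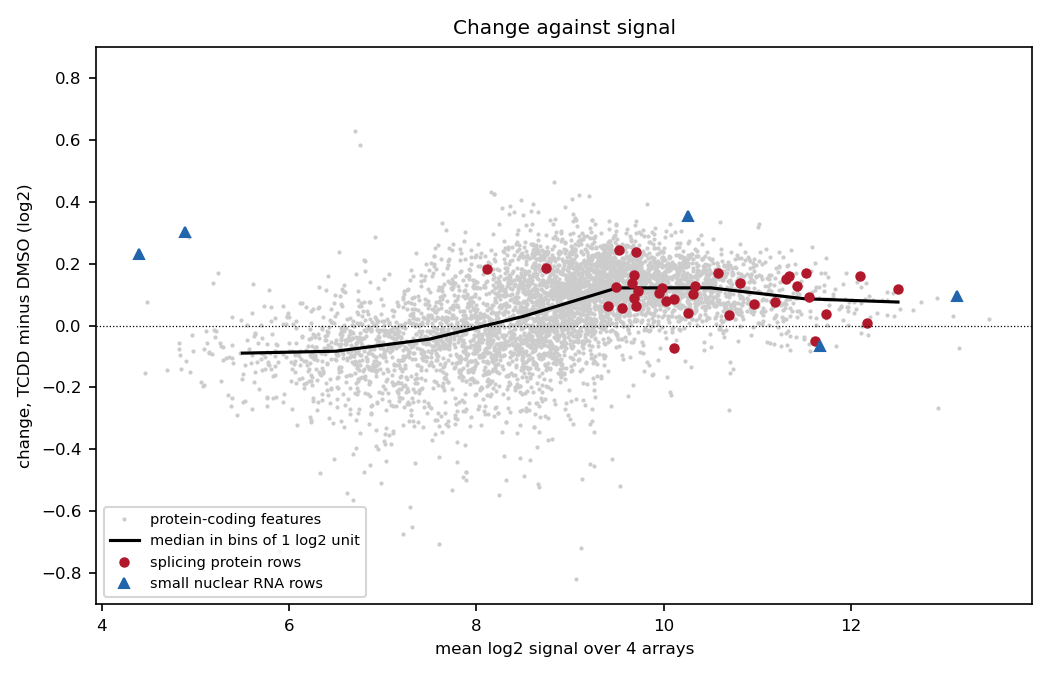
Change (TCDD minus DMSO, log2) against mean log2 signal over 4 arrays for protein-coding features in grey, splicing protein rows as red circles and small nuclear RNA rows as blue triangles; the line joins medians of protein-coding features in bins of 1 log2 unit. The binned median is -0.083 between 6 and 7 and 0.12 between 9 and 10, and the protein rows scatter about it.

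The DMSO arrays differed from each other about as much as the groups did. DMSO replicate 2 read lower than DMSO replicate 1 in 35 of 35 protein rows, by a median of 0.098, and so did 82.9% of the features of like signal. TCDD replicate 1 exceeded TCDD replicate 2 in 23 of 35, by a median of 0.020. Without DMSO replicate 2 the median change was 0.067 and 0 rows were called, against 0.648% of the features of like signal. The change was lower without that array in 35 of 35 rows, and in 25 it differed by over 1.5 times or turned its sign. Without DMSO replicate 1 the median was 0.15 and 13 rows were called, all higher, against 38.3% of the features of like signal called in either direction. Cyclic loess normalization, which removes differences between arrays that follow signal, gave a median of -0.0014, with 16 rows above 0 and 19 below, and 0 called, against 6.71% of the features of like signal. Under quantile normalization the median was -0.012, with 15 rows above 0 and 0 called, against 4.66%.

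**Figure D3:**
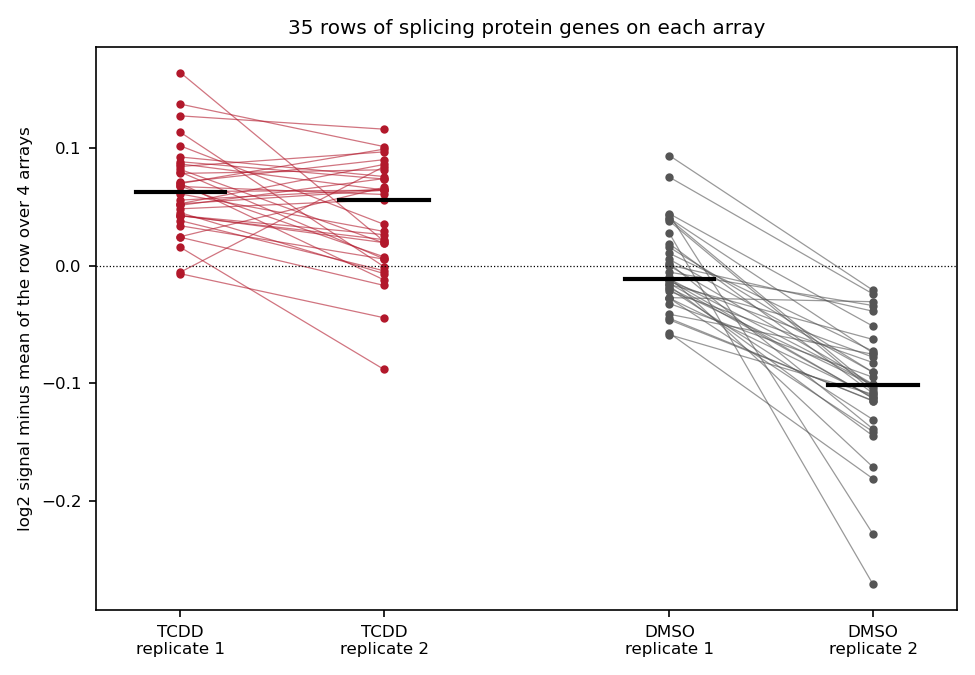
Log2 signal of the 35 protein rows on each array, minus the mean of the row over all 4 arrays, with thin lines joining the 2 arrays of a group and thick bars at the median of each array. The medians are 0.063 and 0.056 for TCDD and -0.011 and -0.10 for DMSO, so the DMSO arrays differ by more than the TCDD arrays do.

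SNRNP40 encodes a WD-repeat protein of the U5 small nuclear ribonucleoprotein (snRNP). It read 9.84 and 9.80 in TCDD, against 9.65 and 9.52 in DMSO. Both TCDD arrays were above both DMSO arrays, and the gap between the DMSO arrays was the wider one. SNRNP40 rose by 0.24 (SE 0.061, limma adjusted p = 0.0462), or 1.18-fold, with an interval from 0.090 to 0.39. The call was lost when any array but DMSO replicate 1 was left out, with 0.18 without DMSO replicate 2 (limma adjusted p = 0.0899), 0.22 without TCDD replicate 1 (limma adjusted p = 0.267) and 0.26 without TCDD replicate 2 (limma adjusted p = 0.141). It was also lost after cyclic loess, at 0.13 (limma adjusted p = 0.0976), and when the same p-values were adjusted over protein-coding features alone (adjusted p = 0.0776). RBM15, an RNA-binding adaptor of the complex that methylates adenosine in messenger RNA, had as large a change without passing. It read 9.65 and 9.64 in TCDD, against 9.55 and 9.26 in DMSO. The TCDD arrays nearly coincided and DMSO replicate 2 was far below DMSO replicate 1, so the change of 0.24 had an SE of 0.098 (limma adjusted p = 0.120). The change was 0.094 without DMSO replicate 2, and 0.39 and called without DMSO replicate 1 (limma adjusted p = 0.0239).

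The promoters of these 2 genes and of HNRNPR, whose rows disagreed, are shown because TCDD acts through AhR, which with its partner ARNT binds DNA at the core GCGTG. Each window runs from 250 bases before to 50 bases after the gene's start in RefSeq (GRCh38.p14), on the gene's strand, and capitals mark GCGTG and CCAAT on either strand, so that CACGC and ATTGG are marked too. SNRNP40 lies on the minus strand (chr1:31296739-31297038), RBM15 on the plus strand (chr1:110339127-110339426) and HNRNPR on the minus strand (chr1:23344235-23344534).
SNRNP40: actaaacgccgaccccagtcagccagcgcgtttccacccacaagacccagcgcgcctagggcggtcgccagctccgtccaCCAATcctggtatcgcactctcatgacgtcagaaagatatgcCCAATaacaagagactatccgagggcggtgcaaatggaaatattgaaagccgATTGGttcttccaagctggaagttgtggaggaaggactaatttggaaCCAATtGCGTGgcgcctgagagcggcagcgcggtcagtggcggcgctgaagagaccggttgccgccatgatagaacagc
RBM15: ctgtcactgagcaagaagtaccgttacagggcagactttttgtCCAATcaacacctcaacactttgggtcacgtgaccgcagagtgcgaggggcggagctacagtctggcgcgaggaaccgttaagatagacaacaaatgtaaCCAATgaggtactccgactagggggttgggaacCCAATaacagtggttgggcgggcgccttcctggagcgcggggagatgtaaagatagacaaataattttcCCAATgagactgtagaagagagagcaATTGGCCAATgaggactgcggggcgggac
HNRNPR: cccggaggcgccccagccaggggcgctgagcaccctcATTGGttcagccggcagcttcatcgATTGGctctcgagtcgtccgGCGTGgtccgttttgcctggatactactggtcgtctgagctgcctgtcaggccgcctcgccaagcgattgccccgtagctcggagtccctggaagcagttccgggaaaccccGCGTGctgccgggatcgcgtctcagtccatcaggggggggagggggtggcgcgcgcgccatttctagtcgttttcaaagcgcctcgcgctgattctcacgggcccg

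The SNRNP40 window held 1 GCGTG, from position -23 relative to the start, and 4 CCAAT. The RBM15 window held 0 GCGTG and 6 CCAAT, 2 of which lie end to end. The HNRNPR window held 2 of each. Of the 34 protein genes 32 had a window, and 24 of these held GCGTG in at least 1 window. Counted by windows, 28 of 41 member windows held it (68.3%), against 36.5% of all 35116 windows. CCAAT was in 39.0% of member windows, against 34.6% of all. CCGGAAG, a core bound by ETS factors, was in 31.7%, against 10.3%, and TATAAA was in 12.2%, against 11.5%. Windows of 1 gene overlap in part, and base composition was not matched. A match in such a window is a description of letters only.

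**Figure D4:**
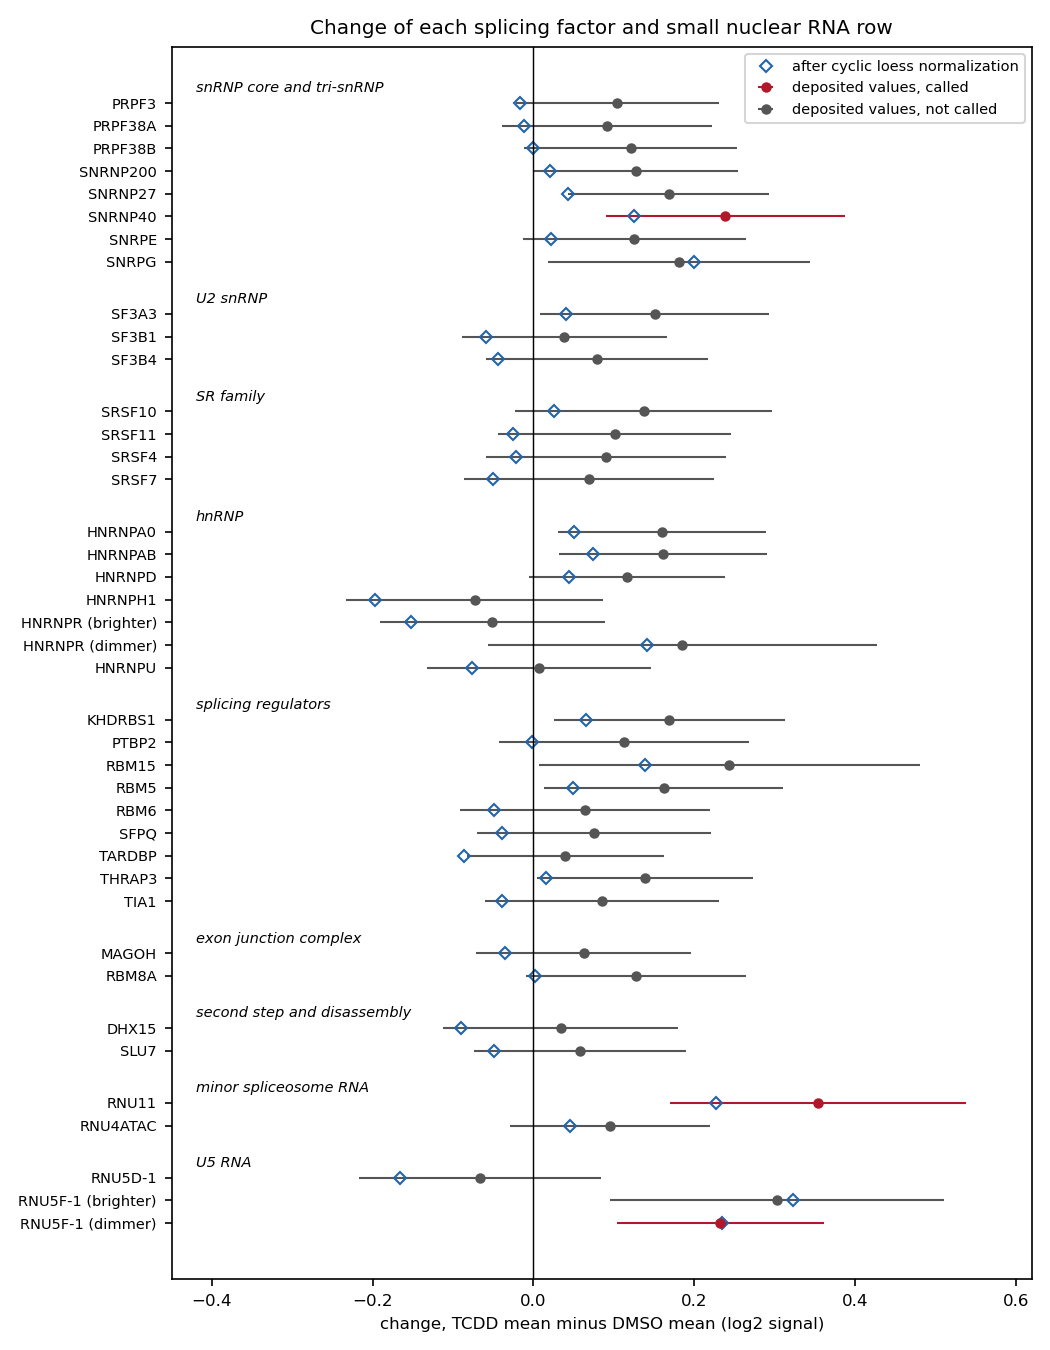
Change of each of the 40 rows (TCDD mean minus DMSO mean, log2), grouped by role, with limma's 95% interval; red rows were called, grey rows were not, and open diamonds give the change after cyclic loess normalization. Only SNRNP40, RNU11 and the dimmer RNU5F-1 row are red, and 16 of 35 diamonds of protein rows lie above 0.

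Proteins of the snRNP core and of the U4/U6.U5 tri-snRNP, grouped here with PRPF38A and PRPF38B, read higher in 8 of 8 rows. Both TCDD arrays were above both DMSO arrays in all 8, and the median change was 0.13. Among the features of like signal the TCDD mean was higher for 79.5%, both TCDD arrays were above for 65.9% and the median change was 0.100. Those features were matched by range only and include ones dimmer than most of the 8. The median of the 8 was 0.088 without DMSO replicate 2 and 0.021 after cyclic loess. SNRNP40 was the 1 called, where 8.99% of the features of like signal were called higher. SNRPG and SNRPE belong to the Sm ring that wraps small nuclear RNAs. SNRPG read 8.19 and 8.21 in TCDD, against 8.10 and 7.94 in DMSO, a change of 0.18 (SE 0.067, limma adjusted p = 0.102). SNRPE read 9.54 and 9.57 in TCDD, against 9.48 and 9.38 in DMSO, a change of 0.13 (SE 0.057, limma adjusted p = 0.155). In both the TCDD arrays were close together and DMSO replicate 2 was lowest, and without it the changes were 0.10 for SNRPG and 0.075 for SNRPE. SNRPG was the 1 protein row under the olfactory level of 8.34. SNRNP27, a tri-snRNP protein, came nearest to the threshold among protein rows that did not pass. It read 10.67 and 10.66 in TCDD, against 10.52 and 10.47 in DMSO, a change of 0.17 (SE 0.052, limma adjusted p = 0.0680), with 0.14 without DMSO replicate 2. SNRNP200, the helicase that unwinds U4 from U6 RNA, read 11.48 and 11.48 in TCDD, against 11.39 and 11.33 in DMSO, a change of 0.13 (SE 0.052, limma adjusted p = 0.126). PRPF3, a U4/U6 protein mutated in retinitis pigmentosa, and PRPF38A and its relative PRPF38B had changes of 0.10, 0.091 and 0.12 with adjusted p from 0.153 to 0.246. After cyclic loess normalization the 3 PRPF rows ran from -0.016 to -0.00072 and the 5 SNRP rows from 0.020 to 0.20, with 0 called. Under quantile normalization PRPF38A was above 0, at 0.018, so the split by sign was not kept.

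The 3 U2 snRNP proteins, which recognise the branch point, did not pass. Of the features of like signal 8.99% were called higher and 2.05% lower. SF3A3, a subunit of SF3a, read 11.39 and 11.37 in TCDD, against 11.28 and 11.17 in DMSO, a change of 0.15 (SE 0.059, limma adjusted p = 0.113). SF3B1, the SF3b subunit often mutated in myelodysplasia, read 11.77 and 11.72 in TCDD, against 11.73 and 11.69 in DMSO. Its groups overlapped, and its change was 0.038 with an interval from -0.089 to 0.17. SF3B4, another SF3b subunit, had a change of 0.079 (SE 0.057, limma adjusted p = 0.332). These changes without DMSO replicate 2 were 0.096 for SF3A3, 0.019 for SF3B1 and 0.055 for SF3B4.

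None of the 4 SR-family genes passed, at an adjusted p or at an unadjusted p under 0.05 by limma. Among the features of like signal 8.99% were called higher and 2.05% lower. At the unadjusted threshold these shares were 33.8% and 4.56%, so a count of 0 in 4 rows does not set the family apart. Changes of the 4 genes ran from 0.069 to 0.14, with a median of 0.096. SRSF10, a splicing regulator that is activated as a repressor by dephosphorylation in heat shock, read 9.76 and 9.70 in TCDD, against 9.66 and 9.52 in DMSO, a change of 0.14 (SE 0.066, limma adjusted p = 0.173). SRSF7, which also takes part in export of messenger RNA, read 11.00 and 10.99 in TCDD, against 11.00 and 10.85 in DMSO. The other arrays were alike and only DMSO replicate 2 was lower, so that its change was 0.069 with that array and -0.0035 without it. SRSF4 and SRSF11 had changes of 0.090 and 0.10. All 4 genes read lower on DMSO replicate 2 than on DMSO replicate 1, by a median of 0.13, which is more than their median change. Without DMSO replicate 2 the median was 0.039, with 0.067 for SRSF10, and after cyclic loess it was -0.024.

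The 7 hnRNP rows had 0 calls, where 8.99% of the features of like signal were called higher and 2.05% lower. The rows differed in direction. HNRNPA0, a target of a stress-activated kinase that binds AU-rich elements, read 11.41 and 11.42 in TCDD, against 11.29 and 11.22 in DMSO, a change of 0.16 (SE 0.053, limma adjusted p = 0.0808). HNRNPAB read 12.16 and 12.18 in TCDD, against 12.05 and 11.98 in DMSO, also a change of 0.16 (SE 0.053, limma adjusted p = 0.0801). HNRNPD, known as AUF1 for its part in the decay of AU-rich messages, read 12.56 and 12.57 in TCDD, against 12.46 and 12.43 in DMSO, a change of 0.12 (SE 0.050, limma adjusted p = 0.139). In these 3 genes both TCDD arrays were above both DMSO arrays. That was so for 3 of the 7 hnRNP rows (42.9%), against 65.9% of the features of like signal. Each of the 3 stayed above 0 after cyclic loess normalization, at 0.051, 0.075 and 0.044, but was not called (limma adjusted p from 0.235 to 0.435).

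HNRNPH1 and the brighter HNRNPR row were the 2 protein rows with a TCDD mean below the DMSO mean. HNRNPH1, which binds runs of G, read 10.13 and 10.02 in TCDD, against 10.21 and 10.09 in DMSO. The groups overlapped, and the change of -0.073 (SE 0.066, limma adjusted p = 0.433) was -0.13 without DMSO replicate 2 and -0.20 after cyclic loess (limma adjusted p = 0.0583). HNRNPR, a relative of the RNA-editing cofactor SYNCRIP that binds transcripts in motor axons, read 11.61 and 11.57 in TCDD, against 11.69 and 11.59 in DMSO, by its brighter row. The change of that row was -0.051 (SE 0.058, limma adjusted p = 0.526). The dimmer row, which carries the symbol without an Entrez identifier, read 8.91 and 8.77 in TCDD, against 8.79 and 8.52 in DMSO, a change of 0.19 (SE 0.100, limma adjusted p = 0.212). The groups overlapped in both rows, and without DMSO replicate 2 the changes were -0.10 for the brighter and 0.049 for the dimmer. HNRNPU, a scaffold protein of the nucleus, had a change of 0.0073 with an interval from -0.13 to 0.15, and of -0.041 without DMSO replicate 2.

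Splicing regulators read higher in 9 of 9 rows with a median change of 0.11, beside the 79.5% and 0.100 of the features of like signal. Of the 9 rows 0 were called, where 8.99% of the features of like signal were called higher and 2.05% lower. The dimmest of the 9 had a mean signal of 9.53, whereas those features start at 8.11. The median of the 9 was 0.068 without DMSO replicate 2 and -0.0014 after cyclic loess. KHDRBS1, which encodes the signalling-linked RNA-binding protein Sam68, read 11.58 and 11.61 in TCDD, against 11.49 and 11.37 in DMSO, a change of 0.17 (SE 0.059, limma adjusted p = 0.0906). RBM5 and RBM6, neighbours with no gene between them on chromosome 3, both encode RNA-binding proteins, and RBM5 is known to regulate exon choice in apoptosis genes. RBM5 read 9.77 and 9.76 in TCDD, against 9.66 and 9.54 in DMSO, with separate groups and a change of 0.16 (SE 0.061, limma adjusted p = 0.106). RBM6 read 9.75 and 9.73 in TCDD, against 9.75 and 9.60 in DMSO, with overlapping groups and a change of 0.065 (SE 0.064, limma adjusted p = 0.474). Leaving out DMSO replicate 2 gave changes of 0.098 for RBM5, -0.0074 for RBM6 and 0.11 for KHDRBS1. The difference between the neighbours was not tested.

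PTBP2, the neuronal relative of the polypyrimidine tract repressor PTBP1, read 9.84 and 9.72 in TCDD, against 9.71 and 9.62 in DMSO, a change of 0.11 (SE 0.064, limma adjusted p = 0.232). The change was 0.068 without DMSO replicate 2 and -0.0014 after cyclic loess. TARDBP, which encodes the ALS-linked protein TDP-43, read 10.30 and 10.27 in TCDD, against 10.26 and 10.23 in DMSO. The groups did not overlap but lay close together, and the interval of the change of 0.040 ran from -0.083 to 0.16. The change was 0.14 for THRAP3, an SR-related protein (SE 0.056, limma adjusted p = 0.119), 0.075 with overlapping groups for SFPQ, a paraspeckle protein, and 0.085 for TIA1, a stress granule protein that helps U1 to bind weak sites. Without DMSO replicate 2 TARDBP was at 0.025, SFPQ at 0.022 and TIA1 at 0.037.

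The remaining protein members belong to the exon junction complex or to the second step of splicing and the disassembly of the spliceosome. RBM8A (Y14) and MAGOH form the dimer at the heart of the exon junction complex, which marks spliced messages. RBM8A read 10.40 and 10.39 in TCDD, against 10.31 and 10.22 in DMSO, a change of 0.13 (SE 0.057, limma adjusted p = 0.146). MAGOH read 9.44 and 9.42 in TCDD, against 9.41 and 9.33 in DMSO, a change of 0.062 (SE 0.055, limma adjusted p = 0.421). The changes were 0.079 for RBM8A and 0.021 for MAGOH without DMSO replicate 2. The change was 0.058 for SLU7, needed for the choice of the downstream splice site in the second catalytic step, and 0.034 with overlapping groups for DHX15, the helicase that takes the spent spliceosome apart. Without DMSO replicate 2 the change of DHX15 was -0.023.

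A list of 57 other splicing genes held helicases, cyclophilins, SR-related proteins and their kinases, regulators, and factors that process small nuclear RNAs or assemble snRNPs, and 47 were measured by a row with 1 symbol. Of these 47, 3 rose and 0 fell (6.38% called higher), with 21 higher and 0 lower at an unadjusted p under 0.05 by limma. Among the features of like signal 8.99% were called higher, and 33.8% were higher at the unadjusted threshold. RBM45, an RNA-binding protein found in inclusions of motor neuron disease, read 8.59 and 8.53 in TCDD, against 8.32 and 8.32 in DMSO, and rose by 0.24 (SE 0.052, limma adjusted p = 0.0316). SREK1IP1, a partner of the SR-related protein SREK1, rose by 0.23 (SE 0.053, limma adjusted p = 0.0359), and LSM6, of the Lsm ring on U6 RNA, by 0.26 (SE 0.067, limma adjusted p = 0.0487). DDX20, a helicase of the SMN complex that assembles Sm rings, with a change of 0.24 (limma adjusted p = 0.0505), and USP39, a tri-snRNP protein, with 0.22 (limma adjusted p = 0.0515), did not pass. Both TCDD arrays were above both DMSO arrays for 30 of the 47 (63.8%), against 65.9% of the features of like signal. Their median change was 0.100, 0.057 without DMSO replicate 2 and -0.015 after cyclic loess normalization, and 0 were called without DMSO replicate 2.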

How the data were processed

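The authors deposited log2 signals. The submitters' processing notes name RMA, whose settings, version and annotation are not given in the sources used here. The table analysed here held 13493 features, those of chromosomes 1 to 5, on 4 arrays. Groups came from the sample titles. Symbols came from the platform annotation, and 6647 features had 1 symbol. Names and biotypes were updated through RefSeq (GRCh38.p14), by Entrez identifier for 5930 features.

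Each feature was fitted with limma 3.58.1 in R 4.3.3 (lmFit, eBayes), 2 TCDD against 2 DMSO arrays without a block, with 2 residual degrees of freedom and 4.27 from the prior. Tests were two-sided, and p-values were Benjamini-Hochberg adjusted over all features. The fit was also run on simulated arrays with independent noise. These held no shift between arrays that follows signal, so that run does not vouch for the calls reported here. No value was filtered or rescaled before this fit. Alternatives were a replicate block, median centring, quantile and cyclic loess normalization, removal of the 25% or 50% dimmest features, a trended robust prior, each array left out, and a rule of unadjusted p under 0.05 with at least 1.5-fold. A fit on protein-coding features alone, and adjustment over them alone, were added after the data had been seen. The members and lists were chosen with earlier results of these data known. All members were named, called rows and small nuclear RNAs with the value of every array, and of other splicing genes the called ones and the 5 of smallest p. Array values of uncalled protein rows were added as illustrations after they had been seen.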

Additional observations from a re-analysis of the deposited data

How the results depend on the processing

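With 2 arrays a group, calls of single rows depended on the choices made. The count of protein rows called higher, 1 with the deposited values, was 0 under quantile normalization, cyclic loess, adjustment over protein-coding features alone and the rule of unadjusted p with 1.5-fold. It was 2 with a replicate block, 2 with the dimmest 50% removed, 2 with a trended robust prior and 9 in a fit on protein-coding features alone, and it ran from 0 (without DMSO replicate 2 or either TCDD array) to 13 (without DMSO replicate 1). A lone array was assumed to vary like the other group. The count of small nuclear RNA rows called higher, 2 with the deposited values, was 3 with the replicate block, 3 with median centring, 1 under quantile normalization, 1 under cyclic loess, 1 with the dimmest 25% or 50% removed (which took out both RNU5F-1 rows), 0 by the rule with 1.5-fold, and 0 to 2 with 1 array left out. Of the member rows 0 were called lower under any of these alternatives. Other splicing genes called higher, 3 with the deposited values, numbered 7 with the replicate block, 1 under quantile normalization, 7 and 9 with the dimmest 25% and 50% removed, 7 with a trended robust prior, 0 by the rule with 1.5-fold and 0 to 20 with 1 array left out. All features called, 2351 with the deposited values, numbered 3634 with the replicate block, 1478 under quantile normalization, 226 by the rule with 1.5-fold and 644 to 4661 with 1 array left out. The replicate block rests on a number alone, since deviations of same-numbered arrays correlated at 0.0373, and pairing was not assumed.

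The median change of protein rows, 0.11, was -0.012 under quantile normalization, -0.0014 under cyclic loess and 0.067 to 0.15 with 1 array left out. That of small nuclear RNA rows, 0.23, was 0.22 under quantile normalization, 0.095 with the dimmest 25% or 50% removed and 0.20 to 0.25 with 1 array left out. The sign turned under quantile normalization for SRSF11 -0.028, SRSF4 -0.035, SRSF7 -0.073, SF3B1 -0.041, SF3B4 -0.055, MAGOH -0.045, RBM8A -0.0058, HNRNPU -0.057, DHX15 -0.10, SLU7 -0.051, PRPF3 -0.028, PRPF38B -0.012, PTBP2 -0.013, RBM6 -0.061, SFPQ -0.036, TARDBP -0.095, THRAP3 -0.010 and TIA1 -0.050, and under cyclic loess for SRSF11 -0.025, SRSF4 -0.022, SRSF7 -0.050, SF3B1 -0.060, SF3B4 -0.044, MAGOH -0.036, HNRNPU -0.077, DHX15 -0.091, SLU7 -0.049, PRPF3 -0.016, PRPF38A -0.012, PRPF38B -0.00072, PTBP2 -0.0014, RBM6 -0.049, SFPQ -0.038, TARDBP -0.087 and TIA1 -0.039. With 1 array left out, changes ran from -0.0035 to 0.14 for SRSF7, from -0.041 to 0.055 for HNRNPU, from -0.023 to 0.091 for DHX15 and from -0.0074 to 0.14 for RBM6. Each of these rows was uncalled with the deposited values. The cause was not tested.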

Other observations

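Besides the members, 62 rows carried 1 symbol of another small nuclear RNA gene, most of them named as pseudogenes of U1, U4, U5, U6, U7 or the atac RNAs. U7 RNA serves the processing of histone messages and not splicing. Of the 62 rows 14 rose and 1 fell by limma, so that 22.6% were called higher, against 9.41% of all features. The median change of the 62 rows was 0.14, against 0.023 over all features. Rises were 6 of 21 U7 rows, 4 of 14 U6 rows, 3 of 16 U5 rows and the 1 U4atac row, and 0 of 5 U1 rows. The 3 U6atac rows all had a TCDD mean below the DMSO mean, and RNU6ATAC4P fell by 0.28 (SE 0.069, limma adjusted p = 0.0431). All 3 lay under the olfactory level of 8.34. After cyclic loess normalization RNU6ATAC4P was at -0.22 and no longer called (limma adjusted p = 0.152). The change of RNU6ATAC2P was -0.013 and turned to 0.029 after cyclic loess.

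RNU4ATAC2P, a pseudogene of the member RNU4ATAC, read 9.07 and 8.97 in TCDD, against 8.60 and 8.56 in DMSO, and rose by 0.44 (SE 0.058, limma adjusted p = 0.0103). With 1 array left out its change ran from 0.39 (without TCDD replicate 1) to 0.49 (without TCDD replicate 2). RNU5E-3P read 5.56 and 5.19 in TCDD, against 4.77 and 4.74 in DMSO, and rose by 0.61 (SE 0.12, limma adjusted p = 0.0238). Its call was kept under cyclic loess (0.64, limma adjusted p = 0.0411) and lost under quantile normalization (0.63, limma adjusted p = 0.0521). The TCDD arrays of RNU5E-3P lay apart, and its change was 0.43 without TCDD replicate 1 and 0.80 without TCDD replicate 2. It was 0.63 without DMSO replicate 1 and 0.60 without DMSO replicate 2. RNU7-70P rose by 0.54 and RNU6-34P by 0.40. After cyclic loess normalization the median change of the 62 rows was also 0.14, against 0.0020 over all features. Then 50 of 62 were above 0, against 6826 of 13493 features, and 13 were called, against 1893 of 13493. Without DMSO replicate 2 the median change of the 62 rows was 0.20, against 0.026 over all features. RNU1-12P and RNU1-13P had identical values on all 4 arrays. Of the 62 rows 32 lay under the signal of 8.34 below which 95% of olfactory receptor features lay. RNU5E-3P, at a mean signal of 5.07, and RNU7-70P, at 6.87, were among them, while RNU4ATAC2P and RNU6-34P were not. Copies of these genes are alike in sequence, so which locus a row reports was not determined.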
